A study of Homo sapiens with 18 samples.

Results

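The genes described here encode ubiquitin-conjugating enzymes whose symbol starts with UBE2, in the BxPC-3 line, which was established from a human pancreatic adenocarcinoma. They were chosen by symbol among protein-coding genes, after the Ensembl identifiers of the count table had been matched to gene names, and then by a filter on low counts over all 6 groups. The rule gave 35 genes for this account, 28 of which passed the filter, among 16794 genes tested and 58395 identifiers in all. The filter used the counts themselves. All 28 genes that passed had at least 93 counts in every library, so none passed through 1 group alone. Just inside the filter was UBE2F-SCLY, with 93 to 197 counts per library, and just outside it was UBE2L5, with 0 to 11 counts.

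There were 6 groups of 3 libraries. Cells received hepatocyte growth factor (HGF) at 80 ng/ml, macrophage-stimulating protein (MSP) at 100 ng/ml, or phosphate-buffered saline as the vehicle, and RNA was collected after 1 h or 4 h. All groups came from the same line, kept in serum-containing RPMI medium. HGF binds the receptor MET, a tyrosine kinase, and MSP binds its relative RON. The labels call the libraries triplicates and do not mention separate cultures. The p-values below therefore reflect only how far these libraries spread, which can be technical.

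Ubiquitin is activated by an E1 enzyme, passed to the active-site cysteine of an E2 (ubiquitin-conjugating) enzyme, and then joined to a protein lysine with the help of an E3 ligase. The E2 often sets which ubiquitin chain is built, and thereby whether the protein is degraded or serves as a signalling platform. Some E2s carry ubiquitin-like proteins instead, such as NEDD8 or ISG15. In epithelial cells, signalling from MET is itself limited by ubiquitination of the receptor, which leads to its degradation.

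The stretches of DNA before the start sites of UBE2S and UBE2D1 are shown. UBE2S had the largest change of the family at 1 h. UBE2D1 was lower at 4 h, a call that several alternative fits lost. Whether sequence relates to response was not tested. Of the stretches considered for display, only these were long enough without an annotated exon. They are RefSeq sequence of build GRCh38.p14, from chr19:55407789-55408038 (minus strand, the 250 bases upstream of the RefSeq start) and chr10:58334756-58334974 (plus strand, from 250 to 32 bases upstream), and hold no annotated exon. Capitals mark motif matches.
UBE2S: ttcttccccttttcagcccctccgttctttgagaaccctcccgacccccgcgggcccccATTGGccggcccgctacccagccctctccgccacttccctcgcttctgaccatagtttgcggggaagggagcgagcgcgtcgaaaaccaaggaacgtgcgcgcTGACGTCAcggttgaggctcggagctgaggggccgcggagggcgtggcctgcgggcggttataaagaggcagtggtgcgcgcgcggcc
UBE2D1: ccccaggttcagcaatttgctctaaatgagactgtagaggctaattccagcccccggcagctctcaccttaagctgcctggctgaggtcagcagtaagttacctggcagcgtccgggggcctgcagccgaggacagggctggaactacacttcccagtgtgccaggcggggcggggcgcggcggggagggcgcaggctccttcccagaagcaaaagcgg
In UBE2S the capitals are a CCAAT box, read here on the other strand as ATTGG, and a full cyclic AMP response element (CRE), TGACGTCA. No motif searched for was found in UBE2D1. Of the 28 genes, 23 had a RefSeq promoter window of 250 bases, searched on both strands, and the same windows of 15843 protein-coding genes served as background. The CRE letters were in 1 of the 23 (4.35%), UBE2S, and in 2.32% of all windows. ETS letters, CCGGAAG, were in 4 of the 23 (17.4%), UBE2E3, UBE2G2, UBE2J2 and UBE2N, and in 11.8% of all. CCAAT was in 6 (26.1%), UBE2D2, UBE2D3, UBE2E3, UBE2S, UBE2T and UBE2Z, and in 34.5% of all. None of the 23 held AP-1 (TGANTCA), EGR1 (GCGTGGGCG), E-box (CACGTG) or FOXO (GTAAACA) letters, which were in 5.04%, 0.991%, 7.84% and 2.25% of all windows. None of these letter strings contains another. The windows of the family were GC-rich, with a median of 72.4% G and C and a range of 60.8% to 80.4%, against a median of 62.4% in all.

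Library totals ranged from 30556613 to 48477215 counts. Levels are CPM (counts relative to the library total, scaled by TMM, edgeR's trimmed mean of M values), and a change was called at an adjusted p below 0.05 in edgeR's quasi-likelihood test. TMM factors were 0.842 to 0.86 after HGF at 4 h and 1.04 in each vehicle library at 4 h. With library totals in place of TMM, the median over all genes of the log2 fold change at 4 h after HGF was -0.35, against -0.06 with TMM, so calls that depend on this choice are named below. Mitochondrial genes took 6.11% to 6.22% of counts after HGF at 4 h and 8.73% to 8.98% in vehicle at 4 h. All 6 epithelial markers (KRT7, KRT8, KRT18, KRT19, EPCAM and CDH1) were at 54.1 CPM or more, and the labelled line is epithelial. Of the 3 leukocyte markers, PTPRC and CD68 had at most 4 counts and LYZ at most 17. The 3 endothelial markers (PECAM1, VWF and CDH5) summed to 2.4 to 2.82 CPM after HGF at 4 h, 6.14 to 7.61 after MSP and 7.52 to 8.15 in vehicle. Their part in the results at 4 h was not tested. Of the fibroblast markers, COL1A2 had at most 2 counts and DCN at most 11, and COL1A1 was at 7.96 to 12.1 CPM. In bulk RNA, fewer cells of a type and less RNA per cell cannot be told apart.

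After 4 h of HGF each of the 28 UBE2 genes differed from vehicle with TMM scaling. Of these, 22 were higher and 6 were lower (UBE2L6, UBE2H, UBE2D1, UBE2B, UBE2D4 and UBE2T), while 33.1% of all genes tested were called higher and 34.8% lower. The median log2 fold change of the 28 was 0.56, against -0.06 for all genes. 3 genes (UBE2N, UBE2G2 and UBE2S) rose by at least 2-fold, and all 22 rises had every HGF library above every vehicle library. How common such rises and such separation were among all genes was not determined, so neither marks out the family. With library totals 18 genes were called higher, the same 6 were lower, and UBE2A, UBE2E1, UBE2E3 and UBE2Q2 were not called, while 21.2% of all genes were called higher and 52% lower. In both scalings 22 of the 28 lay above the median of all genes. Both the rule and the choice of this family were made with earlier results of these data known, so the counts describe the family and single out nothing.

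**Figure D1:**
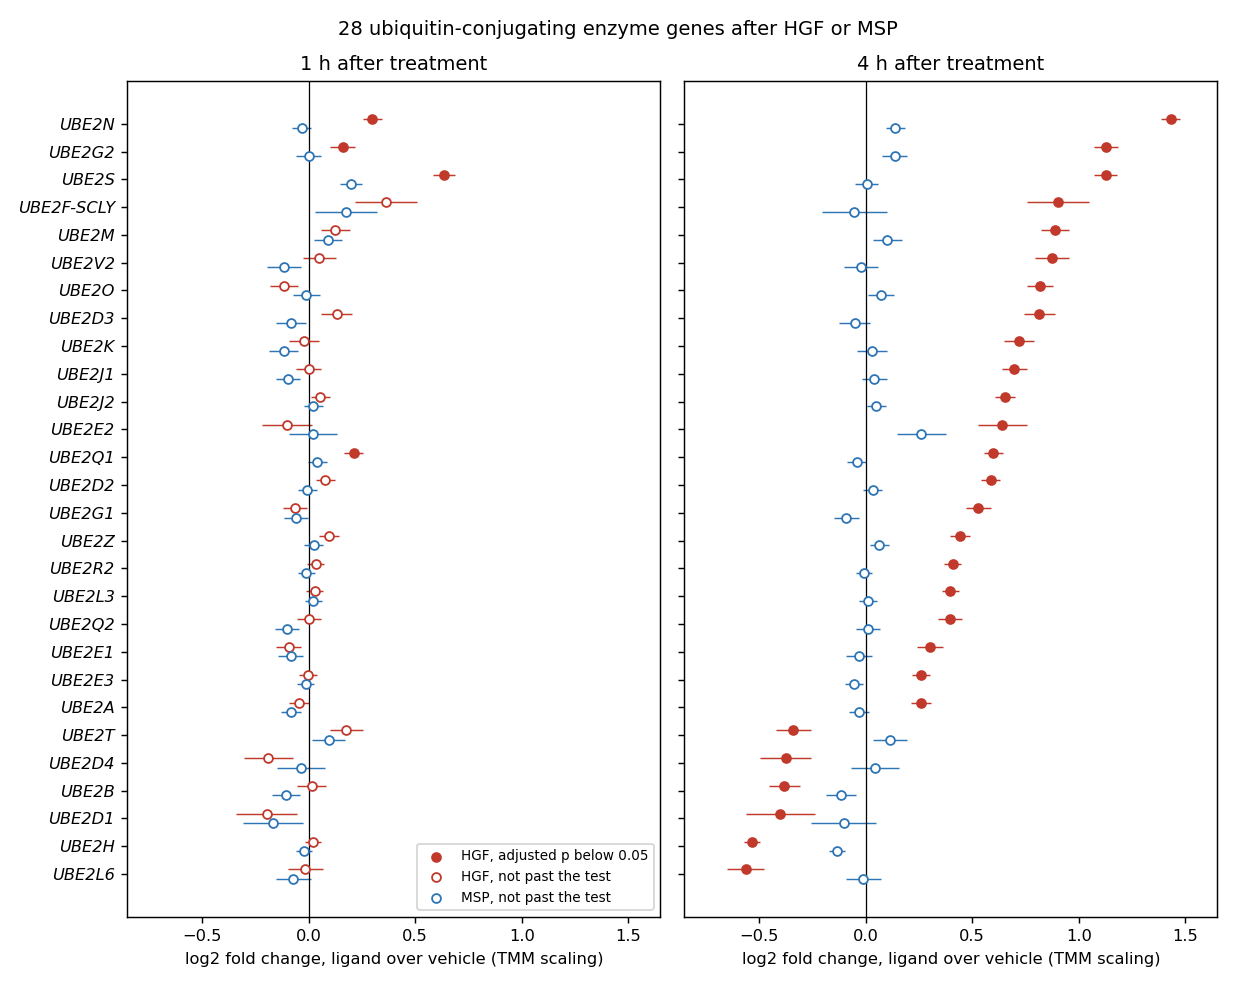
Log2 fold change (TMM scaling) of each of the 28 genes after HGF or MSP over vehicle, at 1 h (left panel) and 4 h (right panel). Points are estimates, bars are ± 1 SE, and filled points have an adjusted p below 0.05. All HGF points at 4 h are filled, 22 to the right of 0 and 6 to the left (with library totals UBE2A, UBE2E1, UBE2E3 and UBE2Q2 are not called), and no MSP point is filled.

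**Figure D2:**
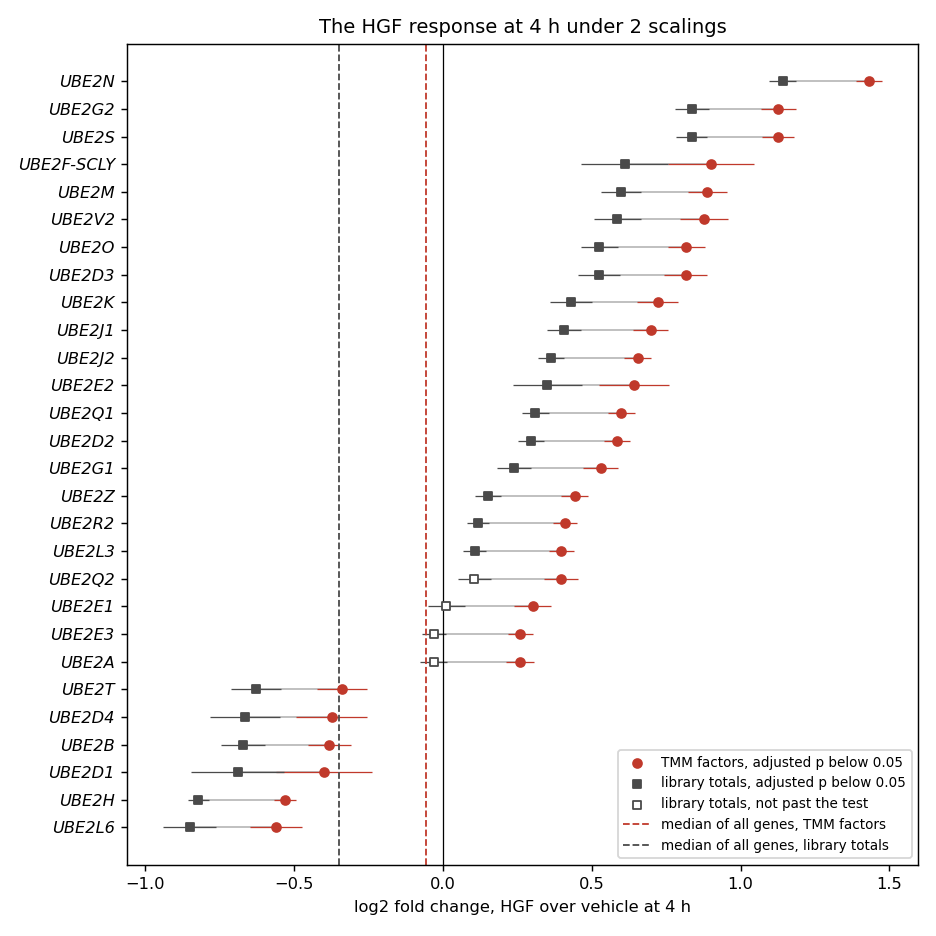
Log2 fold change of each gene at 4 h, HGF over vehicle, with TMM factors (circles) and with library totals (squares). Bars are ± 1 SE and dashed lines are the medians of all genes, -0.06 and -0.35. The order of the genes is the same under both, and the 4 open squares are UBE2Q2, UBE2E1, UBE2E3 and UBE2A.

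The 5 genes tested of the list of chain-specific and cell-cycle E2s were all higher after HGF at 4 h. UBE2N (UBC13) makes lysine-63 chains used in DNA repair and inflammatory signalling. It had 173, 171 and 174 CPM in the HGF libraries, 71.8, 70.5 and 69.5 in the MSP libraries and 66.5, 61.6 and 64.1 in the vehicle libraries. The HGF libraries stood far above all others and hardly varied among themselves. This was the largest change of the family (log2 fold change of 1.43 with SE 0.045 and adjusted p = 1.82e-22). UBE2V2 (MMS2) is the inactive E2-like partner that UBE2N needs to place lysine-63 chains. It was at 96.3, 89.5 and 99.1 CPM after HGF, against 52.2, 50 and 50.6 after MSP and 51, 49.4 and 54.7 in vehicle (log2 fold change of 0.88 with SE 0.0799 and adjusted p = 4.02e-09 for HGF over vehicle). Every HGF library was above every MSP and vehicle library.

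On chromosome 12, 39.5% of the exon bases of UBE2N (93405673 to 93442262, minus strand, GENCODE 29) overlap exons of NUDT4 on the opposite strand. Whether the counting used strand is not stated in the labels, so reads from the overlap cannot be assigned. NUDT4, which encodes a phosphohydrolase, moved in the other direction. It had 100.6, 101 and 99.6 CPM after HGF at 4 h and 138, 153 and 163 in vehicle at 4 h (log2 fold change -0.59, SE 0.0962, adjusted p = 5.05e-05). UBE2V1, the other partner of UBE2N, is listed at 0 in all 18 libraries. Its exons share 42.9% of their bases with the read-through gene PEDS1-UBE2V1 on the same strand, which had 1 to 10 counts per library, and UBE2V1 has 16 annotated pseudogenes. No level can be given for UBE2V1 from these counts.

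UBE2S extends lysine-11 chains on substrates of the anaphase-promoting complex. In the libraries at 4 h it was at 254, 279 and 257 CPM after HGF, 116, 128 and 119 after MSP and 121, 127 and 114 in vehicle (log2 fold change of 1.13 with SE 0.0531 and adjusted p = 4.23e-18 for HGF over vehicle). The HGF libraries did not overlap with the other groups. UBE2G1 and UBE2R2, which work with cullin-RING ligases to build lysine-48 chains that mark proteins for the proteasome, rose less (log2 fold changes 0.53 and 0.41, adjusted p = 2.59e-09 and 1.32e-10).

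**Figure D3:**
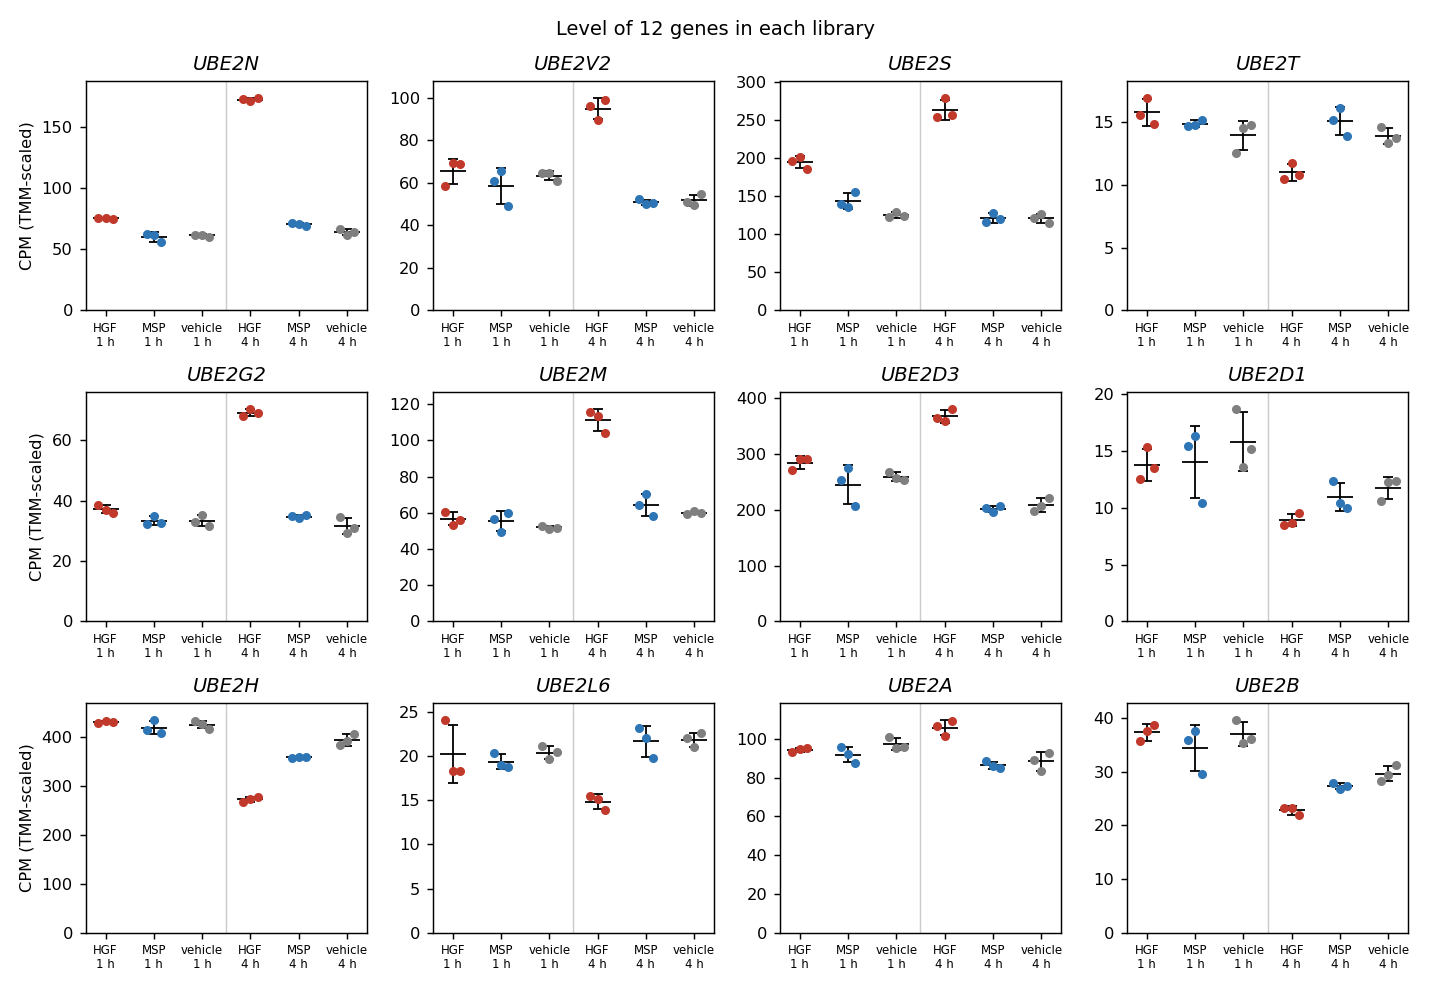
CPM (TMM-scaled) of 12 genes in each of the 18 libraries, with HGF, MSP and vehicle at 1 h left of the grey line and at 4 h right of it. Points are libraries and black bars are the mean ± SD (n = 3). UBE2N, UBE2V2, UBE2S, UBE2G2, UBE2M and UBE2D3 stand highest in the HGF libraries at 4 h, and UBE2H, UBE2L6, UBE2T and UBE2B stand lowest there; UBE2A is not called with library totals.

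All 3 E2s of endoplasmic reticulum-associated degradation (ERAD), the route by which misfolded proteins leave the endoplasmic reticulum for the proteasome, were higher after HGF at 4 h. UBE2G2, a soluble E2 that is recruited to ERAD ligases at the membrane, had 67.9, 70.2 and 68.9 CPM after HGF, 34.8, 34.1 and 35.2 after MSP and 34.7, 29.4 and 30.8 in vehicle. The HGF libraries were far above both other groups (log2 fold change of 1.13 with SE 0.0575 and adjusted p = 3e-17). The membrane-anchored UBE2J1 was at 51.2, 50.4 and 55.6 CPM after HGF and 32, 33.2 and 31.9 in vehicle (log2 fold change of 0.70 with SE 0.0581 and adjusted p = 4.65e-12). Its relative UBE2J2, anchored in the same membrane, had 74.5, 77.4 and 78.3 CPM after HGF and 49.4, 48.5 and 48.4 in vehicle (log2 fold change of 0.65 with SE 0.045 and adjusted p = 5e-14). For both, the groups were clearly apart.

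Among the 9 broad ubiquitin E2s, which serve many ligases, 7 were called higher and 2 lower after HGF at 4 h, of which UBE2E1 and UBE2E3 were not called with library totals. The UBE2D (UBCH5) group split. Within it UBE2D3 and UBE2D2 had the highest levels per length at 4 h, 36.5 ± 1.14 and 31.1 ± 0.749 CPM per kb of exon after HGF and 20.8 ± 1.22 and 20.7 ± 0.548 in vehicle (SD, n = 3 each). UBE2D3 was at 364, 358 and 381 CPM after HGF, against 203, 196 and 206 after MSP and 198, 207 and 222 in vehicle (log2 fold change of 0.82 with SE 0.0718 and adjusted p = 3.87e-09). UBE2D2 had 110.5, 108 and 113 CPM after HGF and 72.9, 72.2 and 75.9 in vehicle (log2 fold change of 0.59 with SE 0.0441 and adjusted p = 4.33e-13). UBE2D1, whose product works with many of the same ligases, was lower, at 8.49, 8.67 and 9.49 CPM after HGF and 10.6, 12.2 and 12.3 in vehicle (log2 fold change of -0.40 with SE 0.161 and adjusted p = 0.0361). That call was lost without HGF replicate 1 (adjusted p = 0.103) or 2 (0.0973), without vehicle replicate 2 (0.0967) or 3 (0.105), and with DESeq2 size factors (0.051). UBE2D4 was at 6.62, 8.97 and 6.17 CPM after HGF and 8.96, 9.39 and 9.76 in vehicle (log2 fold change of -0.37 with SE 0.119 and adjusted p = 0.00676). The second HGF library lay within the vehicle range, and the call was lost without HGF replicate 3 (adjusted p = 0.0754). Exons of UBE2D4 overlap antisense genes in 15.5% of their bases.

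UBE2K, listed here with the broad E2s although it builds lysine-48 chains, had 169.5, 163 and 175 CPM after HGF and 102, 99.2 and 107 in vehicle (log2 fold change of 0.72 with SE 0.07 and adjusted p = 6.41e-09). UBE2E2 was at 5.86, 6.37 and 6.62 CPM after HGF, 4.86, 4.85 and 4.8 after MSP and 4.45, 3.63 and 4.03 in vehicle (log2 fold change of 0.64 with SE 0.116 and adjusted p = 1.5e-05). HGF libraries again lay above the rest. UBE2L3 (UBCH7), which hands ubiquitin to ligases that carry it on their own cysteine, rose by 0.40 (adjusted p = 6.48e-10). UBE2E1 and UBE2E3 were higher by 0.30 and 0.26 with TMM (adjusted p = 8.01e-05 and 2.59e-06), but gave 0.01 and -0.03 with library totals (adjusted p = 0.88 and 0.515). UBE2W, an E2 that modifies protein N-termini, is listed at 0 in every library, and 5.2% of its exon bases are shared with an overlapping gene on the same strand.

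The E2s of DNA repair and chromatin went in both directions. UBE2A and UBE2B are the near-identical human versions of yeast RAD6 and modify histone H2B and the replication clamp PCNA. Exons of UBE2A overlap NKRF on the opposite strand in 18.1% of their bases. UBE2A was at 107, 102 and 109 CPM after HGF and 88.9, 83.4 and 92.9 in vehicle, higher with TMM (log2 fold change of 0.26 with SE 0.0462 and adjusted p = 1.17e-05) and not called with library totals (log2 fold change -0.03, adjusted p = 0.547). UBE2B was at 23.3, 23.1 and 21.9 CPM after HGF, 27.8, 26.8 and 27.4 after MSP and 28.3, 29.4 and 31.2 in vehicle (log2 fold change of -0.38 with SE 0.0728 and adjusted p = 3.1e-05). Its HGF libraries lay below all others at 4 h. UBE2T, the E2 of the Fanconi anaemia DNA-crosslink repair pathway, had 10.5, 11.8 and 10.8 CPM after HGF and 14.6, 13.3 and 13.8 in vehicle (log2 fold change of -0.34 with SE 0.0834 and adjusted p = 0.000672).

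Of 3 E2s of ubiquitin-like proteins, 2 were higher and 1 was lower. UBE2M (UBC12) attaches NEDD8 to cullins, which switches on cullin-RING ligases. It had 116, 113 and 104 CPM after HGF, 64.5, 70.6 and 58.1 after MSP and 59.2, 60.7 and 59.9 in vehicle (log2 fold change of 0.89 with SE 0.0664 and adjusted p = 4.99e-12). UBE2F, the other NEDD8 E2, had 0 to 1 counts per library. Of the exon bases of UBE2F, 16.2% are shared with the read-through gene UBE2F-SCLY on the same strand. In turn, 93.9% of the exon bases of that read-through belong also to UBE2F or SCLY. Why UBE2F had so few counts was not tested. UBE2F-SCLY was at 6.28, 5.17 and 6.43 CPM after HGF and 3.18, 2.77 and 3.63 in vehicle (log2 fold change of 0.90 with SE 0.145 and adjusted p = 2.53e-06). SCLY, which encodes selenocysteine lyase, is listed at 0, so the reads behind this locus cannot be assigned to UBE2F or to the read-through.

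UBE2Z, which is charged by UBA6 and can carry the ubiquitin-like protein FAT10, rose by 0.44 (adjusted p = 3.77e-10). UBE2L6 (UBCH8), the interferon-induced E2 of ISG15, was the largest fall of the family. It had 15.5, 15.2 and 13.9 CPM after HGF, against 23.2, 22.1 and 19.8 after MSP and 22.1, 21 and 22.6 in vehicle (log2 fold change of -0.56 with SE 0.0869 and adjusted p = 1.26e-06).

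The remaining genes tested were 4 besides UBE2F-SCLY. UBE2H, the E2 of the CTLH ligase complex, which is known for its part in red cell maturation, had 268, 272 and 278 CPM after HGF, 358, 359 and 359.8 after MSP and 384, 392.5 and 407 in vehicle. The 3 groups did not overlap (log2 fold change of -0.53 with SE 0.0377 and adjusted p = 1.04e-13 for HGF over vehicle). UBE2O, a large enzyme that joins E2 and E3 activity, was at 56, 62.4 and 60.4 CPM after HGF and 33.4, 34.4 and 33.7 in vehicle (log2 fold change of 0.82 with SE 0.062 and adjusted p = 5.24e-13). UBE2Q1 had 103, 95.3 and 97.8 CPM after HGF and 67.4, 63.9 and 64 in vehicle (log2 fold change of 0.60 with SE 0.0444 and adjusted p = 2.79e-13). UBE2Q2 was higher by 0.40 with TMM (adjusted p = 3.31e-07) and not called with library totals (log2 fold change 0.10, adjusted p = 0.091); it has 10 annotated pseudogenes, which together held at most 139 counts in a library. UBE2QL1 and UBE2Q2P16 had 0 counts in every library and UBE2U 0 to 1.

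Ratios between the counts of 2 family members in the same library do not depend on how libraries are scaled. They restate the fold changes above and are not separate evidence. 11 pairs were compared. In 10 of them the HGF and vehicle libraries at 4 h did not overlap. That gives p = 0.1 in a two-sided exact permutation test, the smallest p that 3 against 3 libraries allow. No ratio could therefore pass 0.05. Between HGF and vehicle at 1 h 5 of the 11 pairs did not overlap, and between vehicle at 4 h and 1 h 6 did not. Pairs of other genes were not compared, so the count is no particular trait of this family. UBE2D1 over UBE2D3 was 0.0242 ± 0.000831 after HGF and 0.0561 ± 0.00287 in vehicle (SD, n = 3 each). UBE2L6 over UBE2L3 was 0.108 ± 0.00835 after HGF and 0.209 ± 0.0117 in vehicle. UBE2B over UBE2A was 0.216 ± 0.014 after HGF and 0.336 ± 0.0174 in vehicle. In each of these 3 pairs every HGF library was below every vehicle library. UBE2N over UBE2V2 was 1.82 ± 0.0838 after HGF, 1.39 ± 0.0223 after MSP and 1.24 ± 0.0663 in vehicle. UBE2G2 over UBE2G1 was 0.852 ± 0.00622 after HGF, 0.659 ± 0.0139 after MSP and 0.563 ± 0.0523 in vehicle. In these 2 pairs the MSP libraries also lay above the vehicle libraries. The pair that overlapped was UBE2J1 over UBE2J2, at 0.683 ± 0.0299 after HGF and 0.663 ± 0.0184 in vehicle.

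**Figure D4:**
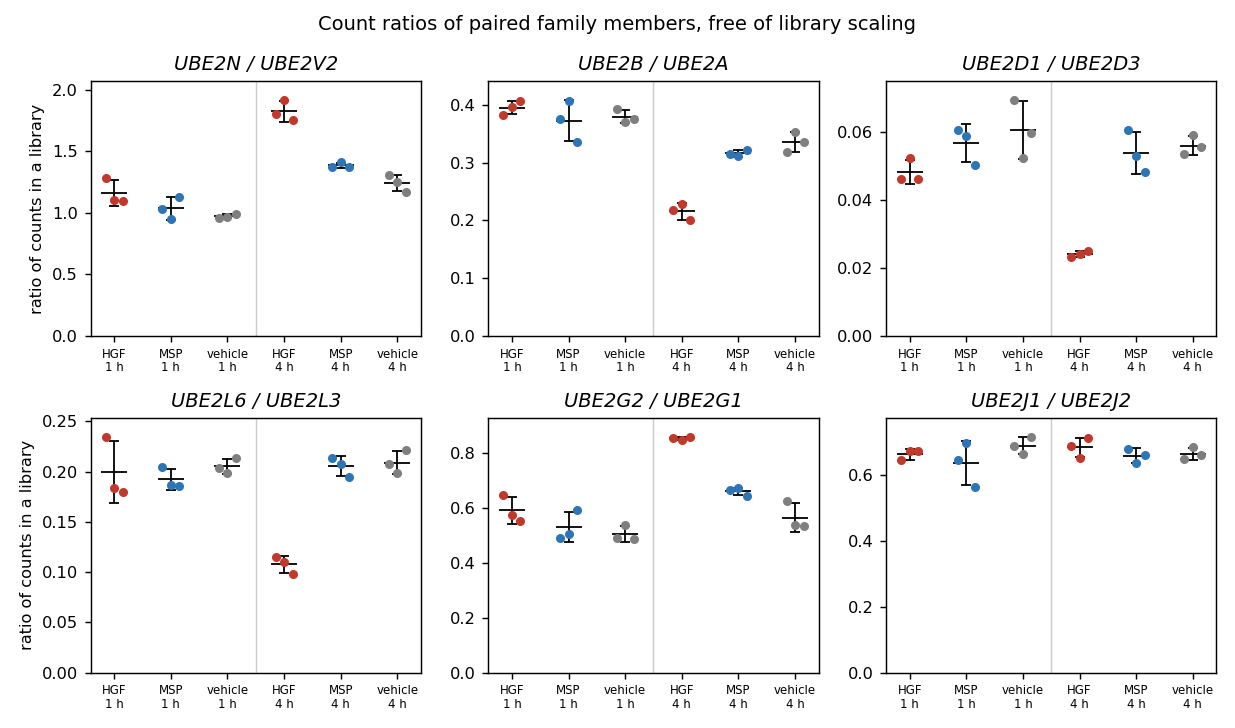
Ratio of the counts of 2 genes within each library, for 6 of the 11 pairs, by group. Points are libraries and black bars are the mean ± SD (n = 3). At 4 h the HGF libraries lie above vehicle for UBE2N over UBE2V2 and UBE2G2 over UBE2G1, below it for UBE2B over UBE2A, UBE2D1 over UBE2D3 and UBE2L6 over UBE2L3, and overlap it for UBE2J1 over UBE2J2.

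Levels between genes can be compared only per length. The length used was that of all annotated exons of a gene merged, not that of the transcripts expressed. The order of genes per kb therefore depends on that choice. Summed over the 28 genes, CPM per kb of exon was 665 ± 4.16 after HGF at 4 h, 467 ± 5.94 after MSP and 470.0 ± 4.06 in vehicle (SD, n = 3 each). As a share of all counts, free of TMM, they took 0.2475% ± 0.00193 after HGF at 4 h, 0.215% ± 0.00144 after MSP and 0.217% ± 0.00313 in vehicle. The make-up of the sum differed too. UBE2H held the largest share per kb in the MSP and vehicle groups at both times, and UBE2S in the HGF groups at both times. At 1 h of HGF their shares were close, 13.2% ± 0.5 for UBE2S and 12.5% ± 0.0899 for UBE2H. At 4 h UBE2S made up 14.2% ± 0.6465 of the sum after HGF and 9.21% ± 0.534 in vehicle. UBE2H made up 6.31% ± 0.108 after HGF, against 12.9% ± 0.268 in vehicle. UBE2M made up 9.13% ± 0.517 after HGF and 6.97% ± 0.0903 in vehicle, and UBE2E3 made up 7.3% ± 0.0261 after HGF and 8.62% ± 0.119 in vehicle. After HGF UBE2M thus stood above UBE2E3, and in vehicle below it. UBE2D4, UBE2E2 and UBE2F-SCLY held the smallest shares in both groups, each 0.423% or less.

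**Figure D5:**
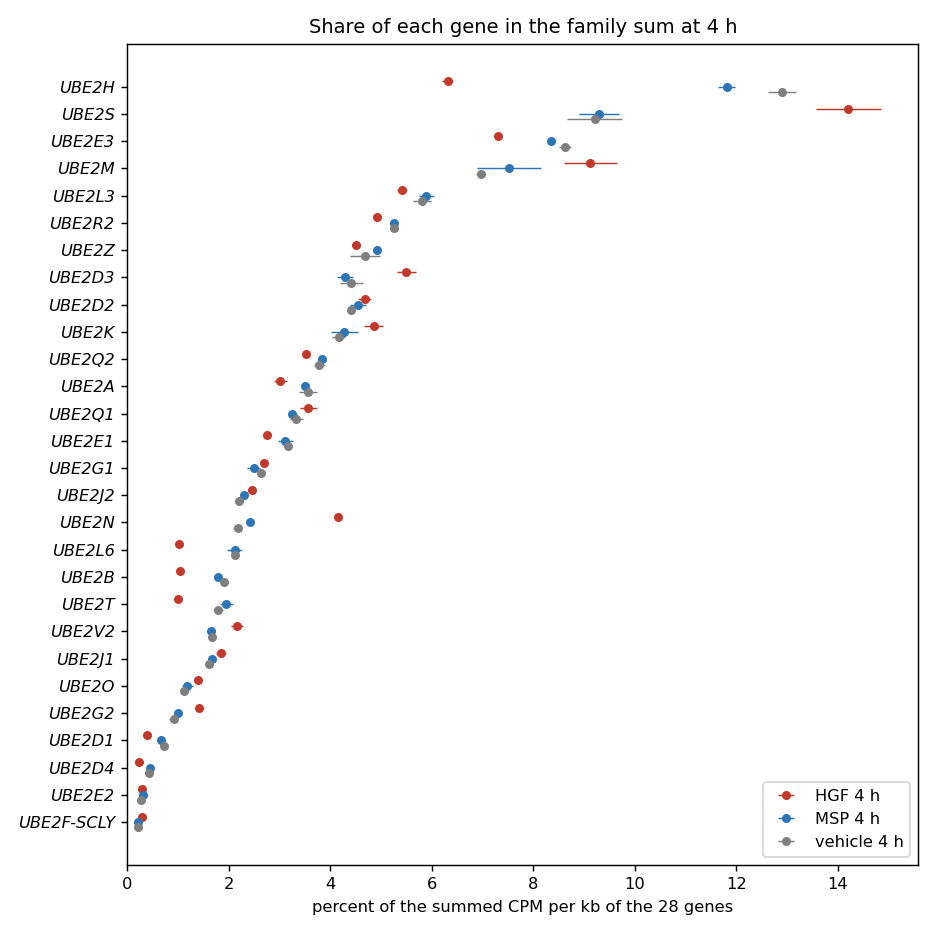
Share of each gene in the summed CPM per kb of exon of the 28 genes at 4 h, in percent, for HGF, MSP and vehicle. Points are means and bars are the SD (n = 3). UBE2S (14.2% after HGF, 9.21% in vehicle) and UBE2H (6.31% after HGF, 12.9% in vehicle) are farthest from their vehicle share.

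At 1 h of HGF 4 genes were higher and none was lower, while 13.8% of all genes tested were called higher and 7.16% lower (3 further members had an unadjusted p below 0.05). UBE2S led, with 196, 202 and 186 CPM after HGF, 139.8, 136 and 156 after MSP and 122, 129.7 and 124 in vehicle (log2 fold change of 0.64 with SE 0.0525 and adjusted p = 2.58e-11 for HGF over vehicle). The 3 groups did not overlap. UBE2N was at 75.4, 76 and 75.2 CPM after HGF and 61.9, 62 and 60.4 in vehicle (log2 fold change of 0.30 with SE 0.045 and adjusted p = 4.51e-06), while NUDT4 was lower (log2 fold change -0.45, adjusted p = 0.00201). UBE2Q1 and UBE2G2 were higher by 0.21 and 0.16 (adjusted p = 0.000451 and 0.0461). These 4 were also higher at 4 h. With library totals, under which the median of all genes was -0.11 at 1 h, UBE2S (0.53) and UBE2N (0.20) stayed higher, the other 2 were not called, and UBE2E1, UBE2E3, UBE2A, UBE2G1 and UBE2O were called lower, while 9.07% of all genes were called higher and 21.4% lower. The call of UBE2G2 was lost without vehicle replicate 1 (adjusted p = 0.133) or 3 (0.249) and without HGF replicate 1 (0.176), 2 (0.0909) or 3 (0.0628). UBE2L6 was uneven at 1 h of HGF, at 24.1, 18.3 and 18.4 CPM, against 21.1, 19.6 and 20.5 in vehicle.

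The HGF response at 4 h differed from that at 1 h, by the interaction term of the same model, in 26 of the 28 genes, 22 upward and 4 downward (UBE2H, UBE2L6, UBE2T and UBE2B), while 26.8% and 26.4% of all genes tested were called in those directions. UBE2N had the largest difference between the responses, 1.13 on the log2 scale (SE 0.0634, adjusted p = 1.37e-15). UBE2G2 followed with 0.97 and UBE2O with 0.93. UBE2D1 and UBE2D4 were not called (-0.20 and -0.19, adjusted p = 0.458 and 0.365). With library totals UBE2A, UBE2E3 and UBE2F-SCLY were not called either, which left 19 upward and 4 downward, while 18.6% and 37.9% of all genes were called in those directions. UBE2F-SCLY (0.54, adjusted p = 0.0296) lost its call in 7 of the 12 fits that left out 1 library, with adjusted p from 0.0529 to 0.0986.

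MSP moved no member past the threshold of edgeR's test at either time. At 1 h, when 0.78% of all genes were called higher and 0.0536% lower, 1 member (UBE2S) had an unadjusted p below 0.05. At 4 h, when 0.774% were called higher and 0.292% lower, 4 did (UBE2H, UBE2N, UBE2G2 and UBE2E2). DESeq2 called UBE2S at 1 h (adjusted p = 0.049) and UBE2H at 4 h (adjusted p = 0.00673). UBE2S stood at 1 h above every vehicle library after MSP, with the values given above (log2 fold change of 0.20 with SE 0.0525 and adjusted p = 0.0724), and it passed without a filter on low counts (adjusted p = 0.00314) and with the replicate number as a block (0.0381). UBE2H was below every vehicle library after MSP at 4 h (log2 fold change of -0.14 with SE 0.0374 and adjusted p = 0.078), and passed when only the compared groups were fitted (adjusted p = 0.0475). UBE2N, at 71.8, 70.5 and 69.5 CPM after MSP and 66.5, 61.6 and 64.1 in vehicle at 4 h, gave 0.14 (adjusted p = 0.143). The 95% intervals of the log2 fold change reached from -0.48 (UBE2D1) to 0.49 (UBE2F-SCLY) at 1 h and from -0.43 (UBE2D1) to 0.51 (UBE2E2) at 4 h, so no interval of the 28 held a change of 1.5-fold. The MSP libraries at 1 h were uneven. Replicate 3 was the lowest of the group for 16 of the 28 genes, for example UBE2D3 (253, 275 and 206 CPM) and UBE2K (114, 129 and 96.6 CPM). That count alone does not set the group apart. At 1 h HGF replicate 1 was the lowest of its group for 14 genes and vehicle replicate 3 for 13. The SD of UBE2D3 at 1 h was 35.2 CPM after MSP, 11.7 after HGF and 7.65 in vehicle. Without MSP replicate 2, UBE2S was called higher (0.24, adjusted p = 0.0191) and UBE2K lower (-0.22, adjusted p = 0.0469). No member's MSP response differed between the times, when 0.0476% of all genes were called upward and 0.274% downward and 3 members had an unadjusted p below 0.05 (no member was called by DESeq2 either).

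Compared directly, HGF exceeded MSP at 4 h in 22 of the 28 genes and was below it in 5, while 32.7% and 33.8% of all genes tested were called in those directions. UBE2N (1.29), UBE2S (1.12) and UBE2G2 (0.99) led. The 5 lower were UBE2L6, UBE2T, UBE2D4, UBE2H and UBE2B, and UBE2D1 was not called (-0.30, adjusted p = 0.112). With library totals 16 were higher and 6 lower: UBE2A, UBE2E1, UBE2E2, UBE2E3, UBE2Q2 and UBE2Z were not called, and UBE2D1 was called lower, while 19.8% and 53.4% of all genes were called in those directions. At 1 h HGF exceeded MSP in 4 genes and was below it in none, while 11.4% and 6.36% of all genes tested were called in those directions. These were UBE2S (0.44), UBE2N (0.33), UBE2D3 (0.22) and UBE2Q1 (0.17); with library totals UBE2S and UBE2N remained and UBE2O was called lower, while 7.72% and 18.5% of all genes were called. With TMM the count was 8 without MSP replicate 2 and 3 to 5 in the other fits that left out 1 library. The groups overlapped for UBE2D3, whose call was lost without HGF replicate 2 (adjusted p = 0.132) or 3 (0.139), without MSP replicate 1 (0.0573) or 3 (0.173), and with the replicate number as a block (0.0774).

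In vehicle alone 12 of the 28 genes differed between the times. Of these, 2 genes were higher at 4 h and 10 lower, while 10.9% of all genes tested were called higher and 9.99% lower. The largest falls were UBE2D1 (-0.42, adjusted p = 0.0487), UBE2B (-0.32, 0.00124), UBE2D3 (-0.31, 0.00419), UBE2Q2 (-0.30, 0.000352) and UBE2V2 (-0.29, 0.013). UBE2K, UBE2G1, UBE2E1, UBE2A and UBE2H were lower by smaller amounts, -0.26 to -0.11. UBE2O (0.27) and UBE2M (0.21) were higher, UBE2M not with library totals, under which 8.78% of all genes were called higher and 12.2% lower. UBE2D3, for instance, was at 198, 207 and 222 CPM in vehicle at 4 h and 268, 258 and 253 at 1 h. The vehicle libraries at 4 h also serve as the control of HGF at 4 h, so the fold changes of the 2 comparisons are not independent. Without vehicle replicate 1 or 2 of 4 h, 4 and 5 genes were lower, and 6 without vehicle replicate 1 of 1 h. UBE2M lost its call without any 1 of the 6 libraries, and UBE2D1 in 5 of those 6 fits, each except that without vehicle replicate 2 of 1 h.

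The rest of the ubiquitin system was described with 10 lists of 98 genes, of which 94 were tested. After HGF at 4 h 49 were higher and 15 lower with TMM, but 29 higher and 48 lower with library totals. Of all genes tested 33.1% were called higher and 34.8% lower with TMM, against 21.2% and 52% with library totals. The median log2 fold change of the 94 was 0.15 with TMM and -0.15 with library totals, in both cases above that of all genes (-0.06 and -0.35). The direction of a list's smaller changes thus depends on the scaling, and the counts of each list are given both ways. Each gene named below kept its call in both, apart from ISG15. After MSP none of the 94 was called at 1 h or at 4 h. Few of all genes were called either, 0.78% higher and 0.0536% lower at 1 h. At 4 h these shares were 0.774% and 0.292%.

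Of the 8 genes of E1 enzymes 5 were higher and 1 lower with TMM, and 3 and 3 with library totals. UBA2, a subunit of the SUMO E1, rose by 1.01 (SE 0.0422), and UBA6, the E1 that charges UBE2Z, rose by 0.85 (SE 0.0597). UBA7, the E1 of ISG15 that charges UBE2L6, fell by 0.35 (SE 0.0861). Of 9 genes of ubiquitin and ubiquitin-like proteins 5 were higher and 1 lower with TMM, and none and 7 with library totals. UBB, a polyubiquitin gene, was lower (-0.45), and ISG15 itself was not called with TMM (-0.07) and lower with library totals (-0.36). Of 8 E2s with other symbols 3 were higher and 2 lower with TMM, and 2 and 6 with library totals. CDC34, the relative of UBE2R2, was higher (0.75), and ATG10 (-0.58), an autophagy E2, and AKTIP (-0.44) were lower.

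Of 12 cullin and neddylation genes 8 were higher and 2 lower with TMM, and 5 and 4 with library totals. DCUN1D5, a NEDD8 co-E3 that works with UBE2M, was higher by 1.504 and CUL1, a cullin scaffold, by 0.77. Of 8 ERAD genes 6 were higher and none lower with TMM, and 4 and 2 with library totals. Among them were AUP1 (0.68), which recruits UBE2G2 to the membrane, and SYVN1 (0.53), the HRD1 ligase. Of 14 genes of the anaphase-promoting complex, the partner of UBE2S, 7 were higher and 1 lower with TMM, and 4 and 7 with library totals. ANAPC7 led (0.66) and CDC23 was lower (-0.26). Of 11 SUMO ligases and proteases 7 were higher and 2 lower with TMM, and 5 and 4 with library totals, led by the protease SENP3 (1.32).

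Of 8 ligases of UBE2N 3 were higher and 1 lower with TMM, and 3 and 5 with library totals. CHFR (0.91), a mitotic checkpoint ligase, was the highest, and HLTF (-0.59), which extends chains on PCNA, the lowest. Of 7 partners of UBE2A and UBE2B 4 were higher and 2 lower with TMM, and 2 and 3 with library totals. RAD18, the PCNA ligase, was higher (0.82), and RNF20 (-0.67), a ligase for histone H2B, and UBR2 (-0.46), an N-end rule ligase, were lower. Of 9 ligases of UBE2L3 1 was higher, ARIH2 (0.80), and 3 were lower with TMM, RNF144B (-1.79), RNF19A (-0.55) and RNF19B (-0.27), against 1 and 7 with library totals.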

How the data were processed

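The files hold whole-number gene counts as deposited, 1 column for each of 18 libraries. Per the submitters' processing notes, STAR served as aligner and featureCounts (Subread) as counter. Build, annotation and strand setting were not given in the sources used here. Of 58395 identifiers, 57754 were matched to a gene name table and 58275 to GENCODE 29, which gave gene types, exon lengths and overlaps. Genes were kept by filterByExpr (minimum count 10, minimum total 15). In R 4.3.3, edgeR 4.0.16 was used with TMM factors for a robust quasi-likelihood fit of all libraries, each of the 6 groups having its own mean (residual df 12). P-values were adjusted by Benjamini-Hochberg over all 16794 genes, with a threshold of 0.05. SE is the absolute log2 fold change divided by the square root of F. Alternatives were library totals, DESeq2 1.42.0 size factors and its Wald test, no filter, a stricter filter, only the groups compared, a fit that was not robust, the replicate number as a block, and leaving out each library. The edgeR test was run on simulated counts in which few genes changed, equally up and down, with 1 common dispersion. Many genes changed after HGF at 4 h, so that run cannot check calls that depend on the scaling. Some genes are not reported here and were left out of the members and lists, though not of the fit. Every member counted is named. By rule, members past the threshold with a 1.5-fold change after HGF or MSP (at most 14) and the 2 highest per kb have full values; others given in full were added after their values were seen. Members and lists were chosen with earlier results of these data known. Depth gives a limit of 3 counts for a count of 0, 0.0619 to 0.0982 CPM, for counting error only.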

Additional observations from a re-analysis of the deposited data

Results flagged for a closer look

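The response to HGF differed between 4 h and 1 h in 26 genes, by a test of the difference itself (edgeR's quasi-likelihood interaction term, adjusted over all genes). By the same test 26.8% of all genes tested were called upward and 26.4% downward. The differences in log2 fold change, 4 h minus 1 h, were 1.13 for UBE2N, 0.97 for UBE2G2, 0.93 for UBE2O, 0.83 for UBE2V2, 0.76 for UBE2M, 0.74 for UBE2E2, 0.74 for UBE2K, 0.70 for UBE2J1, 0.68 for UBE2D3 and 0.60 for UBE2J2. They were 0.59 for UBE2G1, 0.54 for UBE2F-SCLY, 0.51 for UBE2D2, 0.49 for UBE2S, 0.40 for UBE2E1, 0.39 for UBE2Q2, 0.39 for UBE2Q1, 0.38 for UBE2R2, 0.37 for UBE2L3, 0.35 for UBE2Z, 0.30 for UBE2A and 0.26 for UBE2E3. The downward differences were -0.55 for UBE2H, -0.54 for UBE2L6, -0.51 for UBE2T and -0.40 for UBE2B. UBE2A, UBE2E3 and UBE2F-SCLY were not called with library totals. Every group has 3 libraries, too few for a search for single outlying libraries.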

How the results depend on the processing

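With library totals in place of TMM, HGF over vehicle at 1 h had 2 members higher and 5 lower (against 9.07% and 21.4% of all genes called), HGF over MSP at 1 h had 2 higher and 1 lower (against 7.72% and 18.5%), and vehicle at 4 h over 1 h had 1 higher (against 8.78%). In all genes, 28.9% of the calls after HGF at 4 h were upward with library totals and 48.7% with TMM. After MSP at 1 h 1 member was higher without a filter, with the replicate block and with DESeq2's Wald test. At 4 h 1 was lower with DESeq2 and when only the groups compared were fitted. Leaving out UBE2F-SCLY, or the 4 members with at least 10% of their exon bases shared with another gene, moved no count by more than 1.5 times. Leaving out all 8 members with any shared exon base left 20, of which 2 were higher for HGF over vehicle at 1 h and 1 for HGF over MSP at 1 h, since UBE2N, UBE2Q1 and UBE2D3 were no longer counted. These 3 alternatives were chosen after seeing the data. Leaving out each library in turn gave 22 higher and 5 to 7 lower for HGF at 4 h, the 7 including UBE2L5, which passed the filter only in fits that left out a library. The ranges were 3 to 4 higher for HGF at 1 h, 0 to 1 higher and 0 to 1 lower for MSP at 1 h, 3 to 8 higher for HGF over MSP at 1 h, and 1 higher in each fit and 4 to 9 lower for vehicle over time. The cause of the other changes was not tested. Replicate numbers were not taken to pair libraries in the main fit, since the labels state no pairing. Across groups, deviations of the 45 same-numbered pairs correlated at -0.065 to 0.12 (median 0.0309, against -0.0129 for other pairs). Still, 14 of 18 libraries correlated best with their own number, a hint of pairing from the data. The fit with the replicate number as a block was therefore kept among the alternatives. UBE2A (-0.03) and UBE2E3 (-0.03) for HGF over vehicle at 4 h and UBE2A (-0.007) for HGF over MSP at 4 h, called higher with TMM, were below 0 and not called with library totals. At this depth, genes under about 10 counts per library gave no test.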
